A study of Caenorhabditis elegans with 80 samples.

Results

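Of the 40 two-colour arrays hybridised with RNA of worms raised at 24 °C, the 10 with the highest and the 10 with the lowest ratio of the major sperm protein (msp) genes were compared. Each array sets 2 recombinant inbred strains against each other, so the comparison contrasts strain pairs in which the transcripts of sperm differed between the strains in opposite directions. Each of the 40 arrays was given the mean log2 ratio of the 18 probes whose gene symbol starts with msp- (15 genes), called here the msp ratio, and the 20 arrays at the 2 ends of that scale were kept out of 80 arrays in the whole series. The msp probes chose the arrays, and their ratios are therefore given as a description without a test. All other probes, 23214 of 23232, were compared between the groups.

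Transcript ratios had been measured between recombinant inbred strains of Caenorhabditis elegans, bred from the laboratory strain N2 and the Hawaiian strain CB4856 and designated WN, at 16 °C and at 24 °C, with 40 arrays at each temperature. The worms of both groups compared here were kept at 24 °C and collected at 40 h of age, when gonad and vulva size marked them as L3 larvae, and the strains of each array had been paired for large genetic distance. Worms grew as hermaphrodite cultures that were kept free of males, from eggs synchronised by bleaching, in 4 replicate dishes per strain and temperature. The 40 arrays at 24 °C carried 77 strains. Each strain is 1 inbred genotype, each array is 1 strain pair, and the arrays of a group are different pairs. The p-values below therefore measure the spread among strain pairs and not that among repeated cultures of a pair. They treat the arrays as independent, although the strain WN38 recurs within the high group.

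Major sperm proteins are small, abundant proteins of nematode sperm that assemble into the filaments by which the sperm crawls, and they also signal to oocytes and to the gonadal sheath. A C. elegans hermaphrodite makes sperm first, late in larval life, and then switches its germline to oocytes for the rest of its life. Sperm transcripts accumulate within a short window of development, ahead of those of oocytes, eggshell and yolk. In RNA of whole worms, fewer cells of a type and less RNA per cell cannot be told apart.

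The dye in the numerator of the deposited ratios is not given in the sources used here. A gene is therefore said to go with the msp ratio when its log2 ratio was higher in the high group than in the low group, and against it in the opposite case. The term compares groups of arrays. On single arrays such a gene need not have been more abundant in the strain with more msp transcript. Turning every ratio round would exchange the groups and leave these statements as they are.

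The msp ratios of the high group ran from 0.395 through a median of 0.701 to 4.02, and those of the low group from -1.92 through a median of -0.625 to -0.419. The array of WN76 and WN59 stood far above the others of its group, with the next, of WN38 and WN47, at 1.57. The array of WN9 and WN62 likewise lay far below the others of the low group, the next being that of WN3 and WN22 at -0.902. At the edges of the groups there was no such gap. The last array taken into the high group, WN58 with WN38, had a ratio of 0.395 and the first left out, WN45 with WN12, 0.367, while on the low side the last array in, WN1 with WN80, had -0.419 and the first left out, WN60 with WN77, -0.412. WN38 was hybridised on 2 arrays of the high group, once on each dye, so with the numerator on either dye it was the strain with more msp transcript on 1 array and the strain with less on the other. Because WN76/WN59 stands apart, results are also given without it.

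**Figure D1:**
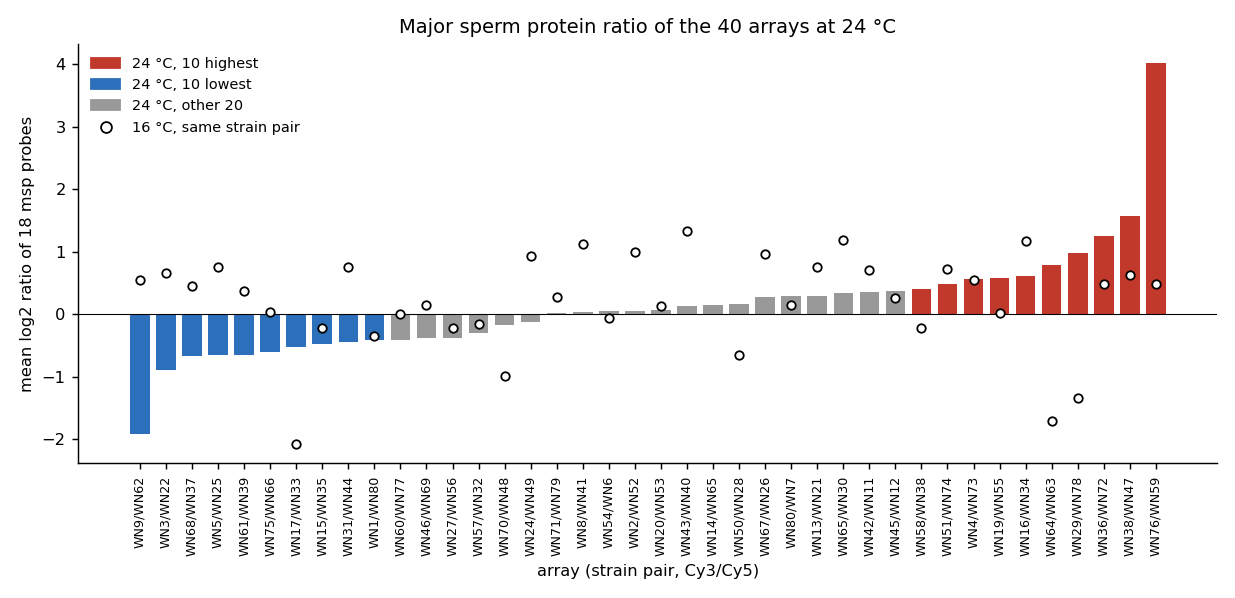
Mean log2 ratio of the 18 msp probes (y axis) for each of the 40 arrays at 24 °C (x axis, strain pair, Cy3 strain first), as bars, with the 10 highest in red, the 10 lowest in blue and the other 20 in grey. Open circles give the msp ratio of the same strain pair at 16 °C, and the pairs of the red and blue bars overlap in them.

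The 18 msp probes did not all behave alike. For 14 of them the ratio followed the mean of the other msp probes over the 40 arrays at 24 °C with a correlation above 0.5, and the correlations between pairs of these 14 had a lowest value of 0.717 and a median of 0.884. Their differences between the groups lay between 1.72 for msp-51 and 2.82 for msp-49. The msp-49 probe ran from -0.36 through 1.06 to 6.97 in the high group and from -2.84 through -0.83 to 0.69 in the low group, with both extremes on the 2 arrays that stand apart. The msp-38 probe did not overlap between the groups, with a lowest ratio of 0.26 in the high group and a highest of -0.28 in the low group. The other 4 probes, both probes of msp-36, 1 of the 2 probes of msp-45 and the probe of msp-81, did not follow the rest, with differences of 0.80, 0.70, -0.14 and -0.20. All msp genes measured lie on chromosomes II and IV. Their coding sequences are nearly identical, so a probe named for 1 msp gene may have measured several, and the values of single msp genes are uncertain. The original work states that every probe was designed to stand for 1 gene only. No probe sequence was available here to check this.

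Outside the msp genes, 914 of 23214 probes (3.94%) differed between the groups at an adjusted p below 0.05 (limma with Benjamini-Hochberg adjustment). Of these, 797 (3.43%) went with the msp ratio and 117 (0.504%) against it, and the median difference was 2.2 and -1.39 respectively, against a median of -0.03 over all probes tested. The arrays were chosen by the msp probes of the same hybridisations, so these counts describe what moves with them on these arrays. The share in each direction depended on the scaling of the arrays, with 1084 probes with and 347 against after every array was centred and divided by its SD, and 957 and 293 after quantile normalization. Without WN76/WN59, 579 probes (2.49%) went with the msp ratio and 49 (0.211%) against it, of which 568 and 46 were among those called with it. Leaving out WN38/WN47 gave 540 probes in all and leaving out WN3/WN22 gave 589. The count against the msp ratio was 67 or fewer when WN19/WN55, WN5/WN25, WN3/WN22, WN1/WN80, WN9/WN62, WN38/WN47 or WN76/WN59 was left out, 69 without WN16/WN34, 71 without WN61/WN39 and 180 without WN15/WN35. Only 49 probes (0.211%) had groups that did not overlap at all, 48 with (0.207%) and 1 against (0.00431%).

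The genes of sperm other than msp went with the msp ratio in large part, and 2 of their lists held the highest shares of called probes. Among the small MSP-domain genes, the ssp and msd families, 12 of 16 probes were called with the msp ratio and none against it, with a median difference of 2.46, and 12 were also called without WN76/WN59. Among the sperm-specific families sss, ssq, nspd and smz, 18 of 25 probes were called, with a median difference of 2.50, and 15 without WN76/WN59. Of 30 spe and fer genes, known from mutants with defective sperm, 11 were called with a median difference of 1.39, and 7 without that array. In each of these lists the share is to be read against 3.43% of all probes.

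The clearest single gene was gsp-4 (chromosome I), a protein phosphatase 1 catalytic subunit of sperm. Its log2 ratio ran from -0.03 through 1.33 to 3.42 in the high group and from -4.18 through -1.24 to -0.40 in the low group. Every array of the high group thus lay above every array of the low group, and the difference was 2.96 ± 0.45 (SE, n = 10 and 10, adjusted p = 0.0065). Its near-identical partner gsp-3, with which its probes may share signal, ran from -0.15 through 1.85 to 4.38 and from -2.28 through -0.40 to 0.46, with a difference of 2.47 ± 0.53 (adjusted p = 0.012) at 1 of its 2 probes. The other gsp-3 probe was not called, at -0.07. For nspd-8 (chromosome I), 1 of the nematode-specific peptide genes of sperm, the groups did not overlap either. Its ratio was between 0.45 and 3.82 with a median of 1.29 in the high group and between -4.59 and 0.21 with a median of -0.52 in the low group. The difference was 2.86 ± 0.59 (adjusted p = 0.010). The largest difference of a sperm gene was that of nspd-9 (chromosome III), at 3.53 ± 0.63 (adjusted p = 0.0068), with 9 of 10 high arrays above 0 and 9 of 10 low arrays below 0. Of the MSP-domain genes, ssp-11 (chromosome IV) ran from -0.18 through 1.58 to 6.95 in the high group and from -3.59 through -0.95 to -0.08 in the low group. Only the lowest array of the high group reached into the range of the low group, and the difference was 2.96 (adjusted p = 0.014), or 2.39 without WN76/WN59 (adjusted p = 0.012).

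Genes with known roles in making or activating sperm showed the same direction. The gene spe-18 (chromosome II), needed to assemble the msp-packing organelles of the spermatocyte, had ratios from -0.68 through 1.45 to 4.10 in the high group and from -4.24 through -1.03 to 0.09 in the low group, with a difference of 2.93 (adjusted p = 0.0081). The ratio of spe-41, a TRP channel of the sperm membrane, was above 0 in 10 of 10 high arrays but below 0 in only 5 of 10 low arrays, and its difference was 1.84 (adjusted p = 0.024). For spe-11, which encodes a paternal factor of the embryo, the difference was 2.68 (adjusted p = 0.034). It lost the call in 8 of 20 fits that left out 1 array, with its highest adjusted p without WN38/WN47 (2.47, adjusted p = 0.072). In the same way spe-54, at 2.74 (adjusted p = 0.027), lost it in 4 fits, with the highest adjusted p without WN9/WN62 (2.50, adjusted p = 0.056). Among other families, picked after their values were seen, 9 of 11 probes of the tau-tubulin kinase-like genes (ttbk) went with the msp ratio. That is 81.8%, against 3.43% of all probes, with a median difference of 2.30.

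**Figure D2:**
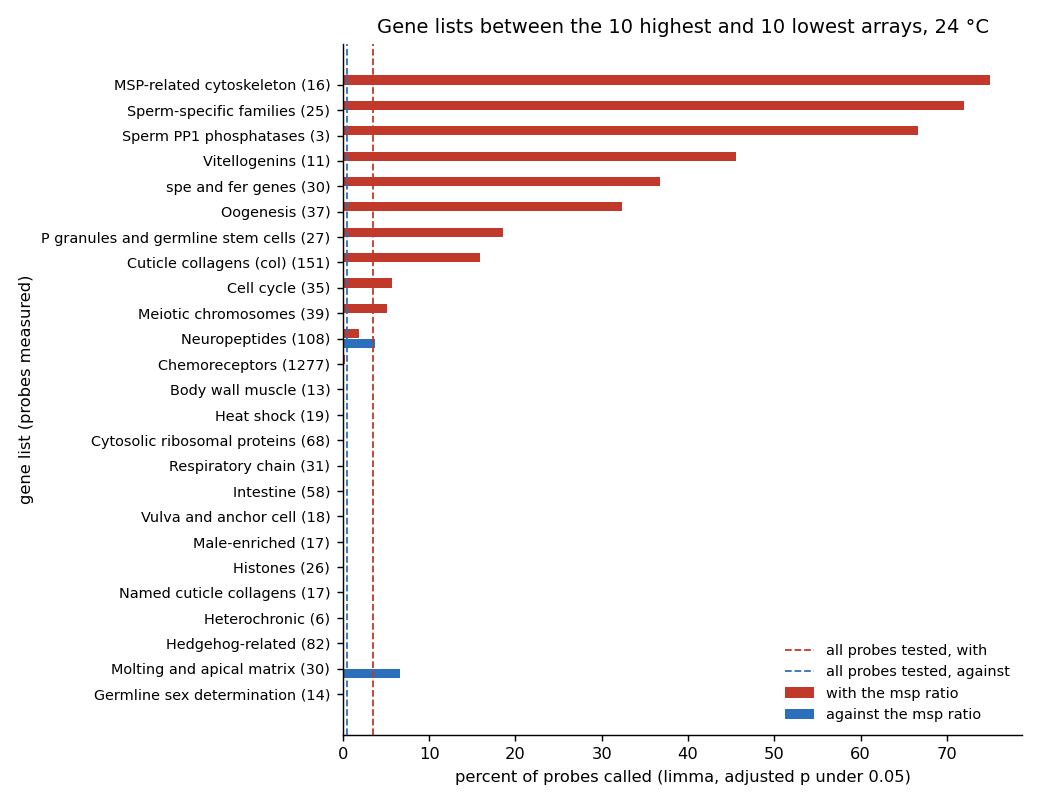
Percent of the probes of 25 gene lists (y axis, number of probes in brackets) called with the msp ratio (red) or against it (blue) between the 10 highest and 10 lowest arrays at 24 °C. Dashed lines give the shares over all 23214 probes tested. The MSP-related, sperm-specific and sperm phosphatase lists stand at the top, followed by the vitellogenins and then the spe and fer genes.

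Genes of the later, female phase of the germline also went with the msp ratio. Of 37 probes of oogenesis genes, 12 (32.4%) were called with it and none against, where 3.43% and 0.504% of all probes were. The median difference of the list was 1.32, and 10 of its probes were called without WN76/WN59. The gene perm-2 (chromosome IV), for an eggshell protein of the permeability barrier, ran from -0.23 through 1.51 to 5.89 in the high group and from -4.31 through -0.52 to 0.88 in the low group. The groups overlapped, and the difference was 2.96 ± 0.68 (adjusted p = 0.017). For egg-1 (chromosome III), an oocyte surface receptor needed for fertilisation, the difference was 2.52 (adjusted p = 0.018), and for cpg-1 (chromosome III), a chondroitin proteoglycan of the eggshell, 2.28 (adjusted p = 0.014). Fewer genes of the earlier germline were called. Of 27 probes for P granule and germline stem cell genes 5 (18.5%) went with the msp ratio. Among them was gld-1, a translational repressor of the meiotic germline, at 1.78 (adjusted p = 0.033). That call was lost when any of 9 single arrays was left out, WN9/WN62 among them (1.65, adjusted p = 0.067). Of 39 probes for proteins of meiotic chromosomes 2 were called (5.13%, near the 3.43% of all probes), with a median difference over the list of 0.48. None of the 14 genes of germline sex determination was called in either direction, and their median difference was 0.14. At the shares of all probes a list this short would hold few or no calls.

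The vitellogenins, yolk proteins that the intestine of the adult hermaphrodite secretes for the oocytes, had the largest median difference of all lists at 3.02. Of 11 probes 5 (45.5%, against 3.43% of all probes) were called with the msp ratio, 4 of them without WN76/WN59. The vit-5 probe (chromosome X) ran from -0.43 through 2.05 to 7.31 in the high group and from -3.90 through -0.76 to 0.06 in the low group, with the highest value on WN76/WN59 and the lowest on WN9/WN62. The difference was 3.49 ± 0.72 (adjusted p = 0.010), and 2.95 without WN76/WN59 (adjusted p = 0.012). The vit-6 ratio reached 8.59 on WN76/WN59. Its difference was 3.35 (adjusted p = 0.032), and it lost the call in 6 of 20 fits without 1 array, that without WN38/WN47 among them (3.10, adjusted p = 0.065). Not all vitellogenin probes moved, and the probes of vit-4 gave differences of 3.02, 2.71, 0.32 and -0.43, none called. The vit-3, vit-4 and vit-5 genes are close copies, so probes may share signal among them.

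Among genes of the cuticle the 2 lists differed in their counts. Of 151 probes of col genes, the numbered cuticle collagens, 24 (15.9%) were called with the msp ratio and none against it. Of all probes 3.43% and 0.504% were. The col list had a median difference of 0.52, and 19 of its probes were called without WN76/WN59. Of 17 collagen genes named for mutant body shape none was called, in a list that would hold few or no calls at those shares. Their median difference was 0.36. The ratio of col-119 (chromosome IV) lay between -0.10 and 4.98 with a median of 1.17 in the high group and between -2.69 and -0.01 with a median of -1.30 in the low group, with a difference of 3.31 ± 0.62 (adjusted p = 0.0078). For col-143 (chromosome V) 9 of 10 high arrays were above 0, while the array of WN58 and WN38 stood at -5.58, far below the next at 1.17, and the difference was 4.25 (adjusted p = 0.018). The gene col-19, known as a collagen of the adult cuticle and named here after its value was seen, was among those called, at 2.80 (adjusted p = 0.023). Genes of molting and of the apical matrix gave 0 of 30 probes with and 2 (6.67%) against, where 0.504% of all probes went against. The 2 were mlt-2 at -1.16 and nekl-4 at -1.03. In fits without 1 array, mlt-2 lost the call in 13 of 20 and nekl-4 in 16 of 20, with adjusted p up to 0.072 and 0.093.

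**Figure D3:**
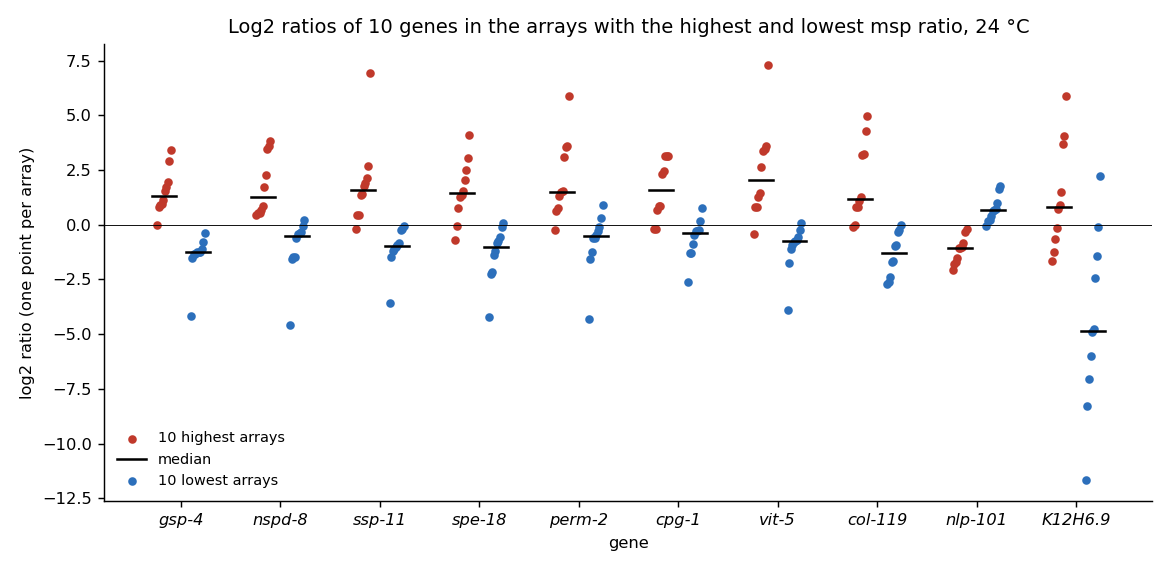
Log2 ratio (y axis) of 10 named genes (x axis) in the 10 highest arrays (red) and the 10 lowest arrays (blue) at 24 °C, one point per array, with a black line at the median of each group. For gsp-4, nspd-8 and nlp-101 the groups do not overlap, and K12H6.9 reaches -11.7 in the low group.

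Few genes went against the msp ratio. The clearest was nlp-101 (chromosome X), of the neuropeptide-like protein genes, with ratios from -2.08 through -1.05 to -0.18 in the high group and from -0.05 through 0.65 to 1.75 in the low group. It was the only probe against the msp ratio whose groups did not overlap, and its difference was -1.87 ± 0.31 (adjusted p = 0.0065). Of 108 neuropeptide and insulin genes 4 (3.7%) were called against the msp ratio and 2 (1.85%) with it, ins-37 at 2.65 and flp-23 at 2.2. Of all probes 0.504% were called against it and 3.43% with it. The 2 genes called with it were not called when a single array was left out (ins-37 without WN38/WN47, adjusted p = 0.051, and flp-23 without WN3/WN22, adjusted p = 0.051). The median of the list was -0.71, and 21 of 108 differences were positive, against 47.9% of all probes. Among nuclear hormone receptors, picked as a family after the values were seen, 5 of 267 probes went against the msp ratio and none with it. These counts are to be read against the same shares of all probes. The largest negative differences of named genes were -3.36 for txt-3 (adjusted p = 0.034), -2.57 for sod-3, a mitochondrial superoxide dismutase (adjusted p = 0.037), and -2.44 for F35F10.6 (adjusted p = 0.033). None of these 3 was called without WN76/WN59, with adjusted p of 0.065, 0.066 and 0.051 at differences of -3.02, -2.46 and -2.46.

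The genes with the largest differences with the msp ratio were in none of the sperm lists. They were K12H6.9, clec-219, Y110A2AL.7, clec-207, K03D3.5, Y47D7A.2, Y47D7A.7, T10B10.9, clec-208 and fipr-28, where clec genes encode C-type lectins. K12H6.9 (chromosome II) ran from -1.65 through 0.81 to 5.90 in the high group and from -11.7 through -4.83 to 2.21 in the low group, with a difference of 5.75 ± 1.38 (adjusted p = 0.020). The groups overlapped, and 9 of 10 low arrays but only 6 of 10 high arrays had the sign of their group. These 10 genes moved together over the 40 arrays at 24 °C, with correlations between each other from 0.745 to 0.963. Their mean, however, did not follow the msp ratio from array to array (r = 0.278 over the 40 arrays, which share the probes' selection, so no test is given), in contrast to the mean of the other sperm genes (r = 0.890). On the array with the highest msp ratio, WN76/WN59, the mean of the 10 genes was -0.38, and on that with the lowest, WN9/WN62, 0.43. The low values came from other arrays of the low group, down to -8.24 in WN61/WN39. Without WN3/WN22, clec-219 (5.11, adjusted p = 0.065), clec-207 (4.53, adjusted p = 0.077), T10B10.9 (4.53, adjusted p = 0.055) and fipr-28 (3.91, adjusted p = 0.076) were no longer called. Over the 20 fits without 1 array, clec-207 lost the call in 14, fipr-28 in 13, clec-219 in 9 and T10B10.9 in 6. K03D3.5 and clec-208 lost it in 1 each, and K12H6.9, Y110A2AL.7, Y47D7A.2 and Y47D7A.7 in none. Of 241 probes for clec genes, a family picked after the values were seen, 21 (8.71%) were called with the msp ratio and none against it, where 3.43% and 0.504% of all probes were.

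**Figure D4:**
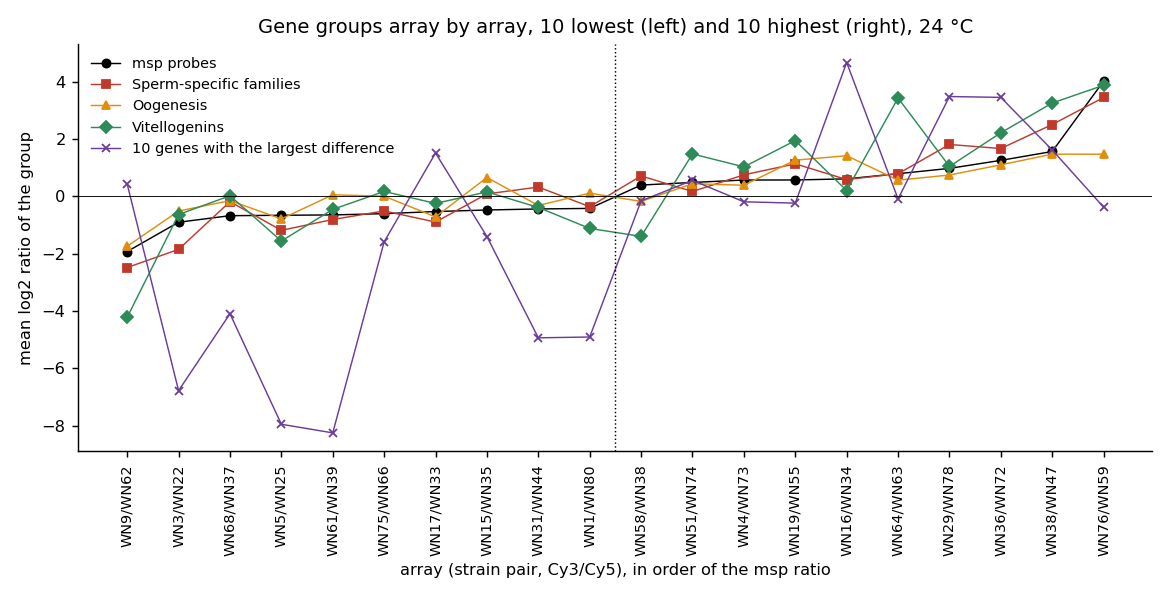
Mean log2 ratio (y axis) of the msp probes, the sperm-specific families, the oogenesis genes, the vitellogenins and the 10 genes with the largest difference, for the 10 lowest (left of the dotted line) and 10 highest arrays (x axis, in order of the msp ratio) at 24 °C. The sperm families and vitellogenins reach their extremes on WN9/WN62 and WN76/WN59, where the 10 genes with the largest difference stand at 0.43 and -0.38.

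Markers of males and of other tissues were compared in the same way. Of 17 probes for 16 genes enriched in males none was called, with a median difference of 0.20. The list's mean ratio lay between -0.34 and 0.43 in the high group. In the low group it lay between -1.43, on WN3/WN22, and 0.50, on WN9/WN62. The largest difference was that of cwp-1, coexpressed with the polycystins of male sensory neurons, at 2.53 (adjusted p = 0.16). The polycystins themselves gave 1.16 for pkd-2 (adjusted p = 0.55) and 0.20 for lov-1 (adjusted p = 0.92), and the seminal protease gene try-5 1.22 (adjusted p = 0.16). On WN76/WN59 pkd-2 stood at 4.49 and lov-1 at 0.02. The part of males in the sperm differences was not tested beyond these values. No probe was called among 13 for body wall muscle, 58 for the intestine, 68 for cytosolic ribosomal proteins, 31 for the respiratory chain, 19 for heat shock proteins, 26 for histones and 18 for the vulva and the anchor cell, and the medians of these lists lay between -0.57 for the vulva and 0.09 for muscle. Likewise none was called among 82 probes for hedgehog-related genes and 6 for the heterochronic timing genes. At the 3.43% and 0.504% of all probes, lists as short as these, the male-enriched one included, would hold few or no calls. Of 35 cell cycle genes 2 were called with the msp ratio, a share of 5.71% that lies near the 3.43% of all probes. These were cdc-25.4, a Cdc25 phosphatase (1.94, adjusted p = 0.017), and cyb-1, a B-type cyclin (1.06, adjusted p = 0.036), the second not called in 10 of 20 fits without 1 array, that without WN16/WN34 among them (0.97, adjusted p = 0.072). Among 1277 chemoreceptor probes 3 (0.235%) were called with and 1 (0.0783%) against, below the shares of all probes. Those called with the msp ratio included srz-20 at 2.69 and str-38 at 1.82. None of the 5 genes listed because they were of interest in the original work was called, and their differences ran from -1.57 for C17H11.1 (adjusted p = 0.069) to -0.25 for nmur-1.

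By chromosome, the probes called with the msp ratio were spread unevenly. They made up 7.73% of the probes tested on chromosome IV and 6.88% on chromosome I, 4.81% on II, 3.92% on III, 2.22% on V and 1.74% on X. Chromosome X held the highest share of probes against the msp ratio, 25 of 2301 (1.09%). Of the probes called with the msp ratio, 65.6% of the named ones carried only a sequence name such as K12H6.9, against 41.5% of those tested, so the best known genes make up a minority of them.

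The 20 arrays between the 2 groups, which did not enter the contrast, were examined separately. In a regression of each probe on the msp ratio over these 20 arrays, none of the 23214 probes (0%) reached an adjusted p below 0.05 with limma, 2539 had an unadjusted p below 0.05, and 6 were called with Spearman's correlation. The msp ratio of these arrays spanned only -0.412 to 0.367. Of the 797 probes called with the msp ratio, 744 (93.4%) had a positive slope in these arrays, where 52.1% of all probes did, and of the 117 called against it 104 (88.9%) had a negative slope.

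The same strain pairs had been hybridised at 16 °C, from worms collected at 72 h of age, and all 20 pairs could be matched. Their msp ratio at 16 °C did not carry over. In the pairs of the high group it ran from -1.72 through 0.482 to 1.17, and in those of the low group from -2.08 through 0.410 to 0.762. The groups overlapped almost completely, and 7 of 10 pairs of the high group and 3 of 10 of the low group kept their sign. All 40 arrays at 16 °C had a median msp ratio of 0.323, so a positive sign was the more common one there. The difference of the means was -0.015 (two-sided permutation test, 100000 resamples, p = 0.97). Leaving out single pairs moved it between -0.26 and 0.18, and with only the pairs of the 5 highest and 5 lowest arrays it was -0.85 (permutation p = 0.17). Over all 39 pairs present at both temperatures, the msp ratios at 16 °C and 24 °C gave Pearson's r = 0.038 (permutation p = 0.80) and Spearman's rho = 0.099 (permutation p = 0.55), and r = 0.040 (permutation p = 0.82) once the 2 pairs with the most extreme 24 °C ratio had been set aside. This was 1 relation, so no adjustment over relations applies. The labels give no hybridisation batch within a temperature. Across all probes, none of 23232 (0%) was called between these 2 groups of pairs at 16 °C with limma or with the Wilcoxon test, and 753 had an unadjusted p below 0.05.

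**Figure D5:**
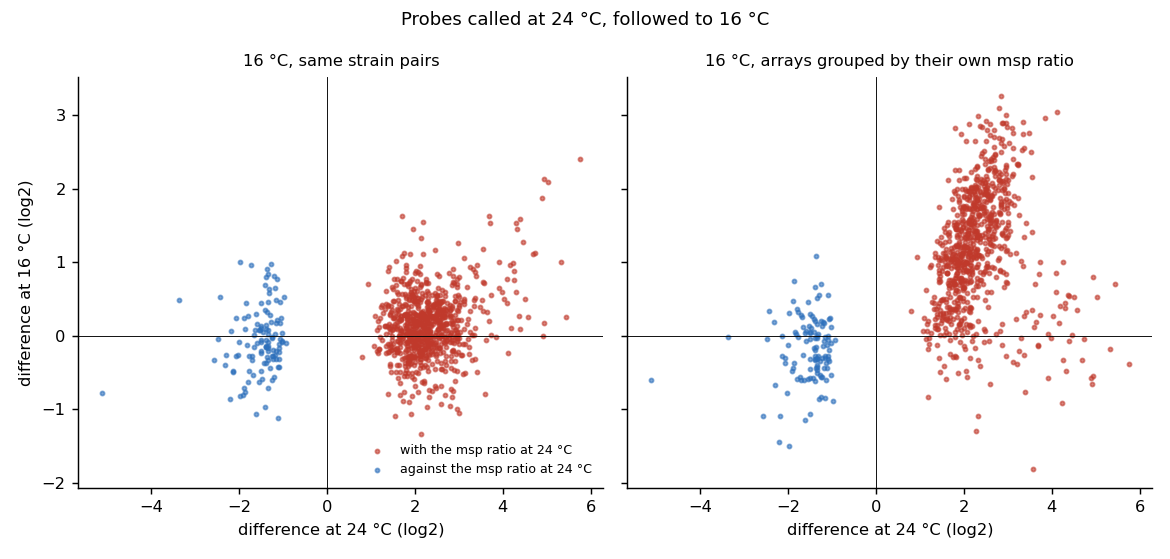
Difference between groups at 24 °C (x axis, log2) against that at 16 °C (y axis, log2) for the 914 probes called at 24 °C, with those going with the msp ratio in red and against it in blue. On the left the 16 °C arrays are those of the same strain pairs, with a median of 0.13 for the red points, and on the right the 16 °C arrays with the highest and lowest msp ratio of their own, with a median of 1.19.

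The probes called with the msp ratio at 24 °C gave a median difference of 0.13 between the same pairs at 16 °C, and 499 of the 797 (62.6%) had the same sign, where 51.7% of all probes were positive. The sperm lists were near 0 there, with medians of 0.03 for the ssp and msd genes and 0.11 for the sperm-specific families. The 10 genes with the largest differences included higher values at 16 °C, such as 2.40 for K12H6.9 and 2.13 for K03D3.5, although none passed the test and Y47D7A.7 was at -0.003.

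When the 16 °C arrays were instead grouped by their own msp ratio, part of the sperm genes were called with it again. These groups, with msp ratios from 0.752 to 1.33 and from -2.08 to -0.192, hold other arrays but share some strain pairs. Of the 10 high pairs at 24 °C, 1 fell into the high and 3 into the low group at 16 °C. Of the 10 low pairs, 3 fell into the low and 2 into the high group. At 16 °C 253 of 23214 probes (1.09%) were called, 243 (1.05%) with the msp ratio and 10 (0.0431%) against it. Of the 797 probes called with it at 24 °C, 741 (93.0%) had the same sign at 16 °C, where 48.2% of all probes were positive, and 187 were called there too, which is 23.5% of the 24 °C list and 77% of the 16 °C list. Of the 117 probes against the msp ratio 76 (65%) had the same sign and none was called.

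The lists did not all repeat at 16 °C. Among the ssp and msd genes 8 of 16 probes and among the sperm-specific families 13 of 25 were called with the msp ratio of the 16 °C arrays, with medians of 1.87 and 1.84. Of the spe and fer genes 1 of 30 was called, and of all probes 1.05%. None of the 3 probes of sperm phosphatases was called, with a median of 1.26. The gene gsp-4, the clearest at 24 °C, differed by 1.32 at 16 °C (adjusted p = 0.16), and spe-18 by 1.43 (adjusted p = 0.11). The vitellogenins had a median of 2.74 with 1 of 11 probes called, whereas the oogenesis genes had a median of 0.26 with 1 of 37 called and the col genes one of 0.30 with 1 of 151. The gene sss-1, for example, differed by 3.34 at 24 °C (adjusted p = 0.012) and by 2.90 at 16 °C (adjusted p = 0.0011), while egg-1 differed by 2.52 at 24 °C and by 0.59 at 16 °C (adjusted p = 0.86). Whether a gene's difference itself differed between the temperatures was not tested, since the groups at each temperature were chosen by that temperature's msp ratio.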

How the data were processed

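The authors deposited 1 normalized log ratio for each of 23232 probes and 80 arrays, with no missing value, taken here to be log2, the base limma uses, since limma is the tool in the submitters' notes. Its version, the normalization, the log base and the numerator's dye are not given in the sources used here. The median absolute ratio was the same in all 24 °C arrays (0.66), so arrays had been scaled to each other within that temperature. With ratios alone, brightness over background is unknown, and precision is limited by the number of arrays. No column was without a sample.

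Genes come from the platform's probe table, which gives 1 gene for 17447 probes, and symbols were updated through their gene identifiers where WBcel235 held them (17358 probes). Groups were compared with limma 3.58.1 in R 4.3.3 (lmFit, eBayes), the msp- probes left out, and p-values were adjusted by the Benjamini-Hochberg method over 23214 probes at 0.05, two-sided. A simulated set of this design with 23214 probes recovered 4 of 100 probes shifted by 1 and 50 of 100 shifted by 2 on the log2 scale, with 3 false calls. Group msp ratios at 16 °C were compared by a two-sided permutation test.

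The rule that chose the arrays, the gene lists and the named genes were set with earlier results of these data known. Named genes are the 10 largest called differences in each direction, up to 3 called members of each list (6 for sperm and sex determination), and all male-enriched genes and genes the study names. Alternatives changed the group size, the score, the scaling, the test, the threshold and the arrays included.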

Additional observations from a re-analysis of the deposited data

Results flagged for a closer look

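In 172 groups of 10 arrays (the msp ratio and 85 genes, high and low group), 1 array stood apart from the other 9 in 25 cases. The rule used flags about 1 in 20 groups of independent, normally distributed values. These groups share arrays and were cut from the ends of the msp ranking, so that rate is no measure of chance here. Of the 25 cases 11 came from WN9/WN62 and 5 from WN76/WN59. Both include the msp ratio itself, which chose the arrays, at -1.92 (next -0.902) and 4.02 (next 1.57).

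In the low group WN9/WN62 also stood apart for the sperm genes msd-4 (-4.63), ssp-11 (-3.59), ssp-16 (-3.52), nspd-5 (-3.74), nspd-8 (-4.59) and gsp-4 (-4.18), for the eggshell gene perm-2 (-4.31) and for the vitellogenins vit-3 (-7.53), vit-5 (-3.90) and vit-6 (-3.54). In the high group WN76/WN59 stood apart for ssp-11 (6.95), spe-41 (3.81), deps-1 (2.82) and vit-5 (7.31).

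Other arrays stood apart for single genes. In the high group WN36/WN72 was at 6.78 for spe-54 and at 5.51 for klp-6, a kinesin of male sensory neurons, WN58/WN38 at -5.58 for col-143 and 7.42 for cwp-1, WN51/WN74 at 1.99 for dmd-3 and WN29/WN78 at 4.22 for flp-23. In the low group WN5/WN25 was at -2.12 for htp-1, WN3/WN22 at -4.94 for pkd-2 and WN17/WN33 at 2.86 for cwp-3. The male-enriched genes among these, cwp-1, pkd-2, klp-6, dmd-3 and cwp-3, each stood apart on a different array. The array of pkd-2, WN3/WN22, had an msp ratio of -0.902, the next after WN9/WN62. The mean of the male-enriched list was lowest there as well, at -1.43. On that array cwp-1, try-5, lov-1 and cwp-3 also had their lowest ratios of the low group, while the remaining male-enriched genes had theirs elsewhere. The highest try-5 ratio of the high group was on WN76/WN59, at 1.92. What these values say about males was not tested. No named gene had every 24 °C array in the direction of its group and every array of the same pairs at 16 °C in the opposite one.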

How the results depend on the processing

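The count of called probes moved with the settings, and the majority of calls went with the msp ratio in each. Against 914 (797 with, 117 against), it was 504 (472 and 32) with 5 arrays per group, 1386 (1090 and 296) with 13, and 1670 (1241 and 429) in a regression on the msp ratio over 40 arrays. Scored by other sperm genes, which shared 7 of 10 high and 7 of 10 low arrays, it was 1986 (1311 and 675), after centring and scaling 1431 (347 against), after quantile normalization 1250 (293 against), at a threshold of 0.01 157 (153 and 4), and without the arrays of WN38, WN65 and WN80 506 (472 and 34). Chosen after seeing the data, replacing WN76/WN59 gave 66 against, leaving out WN76/WN59 and WN9/WN62 gave 437 (420 and 17), and scoring by 14 msp probes gave 1685 (492 against). Leaving out single arrays gave 540 to 1090 probes in all, 492 to 921 with and 48 to 180 against. At 16 °C the arrays by their own msp ratio gave 588 probes by regression and 175 to 286 without single arrays, and Spearman's test gave 6 in the middle arrays. The same pairs at 16 °C gave 0 under every alternative run, and their msp difference, -0.257 to 0.184 without single pairs, changed sign with a permutation p no lower than 0.46 in those fits. With the pairs of the 5 highest and 5 lowest arrays it was -0.85 (permutation p = 0.17).

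Of the 64 named genes called, 31 were called in all 20 fits without 1 array. Without the arrays of the recurring strains WN38, WN65 and WN80, 30 of the 64 were still called. None of these 64 changed sign under any alternative run. Among genes that did not pass, dmd-3 did so with 5 arrays (-0.10), 13 arrays (-0.29), regression (a slope of -0.054), other sperm genes (-0.51), scaling (-0.23), quantile normalization (-0.11), WN76/WN59 replaced (-0.11) and 14 msp probes (-0.32). With 5 arrays cwp-5 was at -0.44 and mab-23 at 0.62, and in the regression cwp-5 had a slope of -0.0078. With the median of the msp probes tbb-6 was at -0.14, mab-23 at 0.023 and nmur-1 at 0.014, and with other sperm genes tbb-6 was at -0.86 and nmur-1 at 0.011. With WN76/WN59 replaced mab-3 was at -0.0597, mab-23 at 0.0596 and cwp-3 at -0.0899. With both arrays left out mab-23 was at 0.029 and cwp-3 at -0.0579, and with 14 msp probes tbb-6 was at -0.017 and mab-23 at 0.27. Without single arrays lov-1 ran from -0.22 to 0.49, dmd-3 from -0.053 to 0.32, mab-3 from -0.081 to 0.50, mab-23 from -0.44 to 0.41 and cwp-3 from -0.37 to 0.40. The causes were not tested. No paired analysis was possible because, between the high and the low group, no array number or strain pair is shared. The 2 temperatures share strain pairs, which set the groups of the comparison of the same pairs at 16 °C. In the simulated set with 10 arrays per group, probes shifted by 1 on the log2 scale were mostly not detected.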
